A study of Homo sapiens with 19 samples.

Results

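Human liver organoids kept on an orbital shaker were treated with PA, and their cells were compared with those of organoids that served as the control for PA. The libraries were chosen by their titles: PA at 500 µM, with 2 libraries, and the PA control, with 2 libraries, which makes 4 of the 19 libraries of the series. The organoids of both groups were grown from W01, a wild-type human pluripotent stem cell line distributed by WiCell, so every library carries the genome of 1 line. Per the labels, the organoids were cultured for 20 days, those of the PA group were then treated for 5 days, and both groups were sampled on day 25. The labels do not spell out PA; in models of fatty liver the abbreviation usually stands for palmitic acid, a saturated fatty acid. They also do not say what the control organoids received, or whether replicates 1 and 2 came from separate cultures. The p-values therefore measure only the spread between the libraries in each fit, which may be technical.

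A cell was used where it had 500 or more genes and no more than 20% of its counts from mitochondrial genes. The controls then held 3205 (replicate 1) and 5742 cells (replicate 2), the PA libraries 7663 and 8249, and all 4 together 24859. Depth differed between the libraries, with 6880807 UMIs (unique molecular identifiers, 1 per captured transcript) in control replicate 1, 45303089 in control replicate 2, 23807698 in PA replicate 1 and 58239103 in PA replicate 2. The median UMI count per cell was 1747, 7058, 2549 and 5990 in the same order, so both libraries numbered 1 were shallow. The median mitochondrial share was 9.10% and 7.86% in the controls and 7.53% and 8.64% with PA. Any pair of these libraries shared between 2 and 22 cell barcodes. Hepatocyte markers were present in every library, with AFP at 541 to 800 and SERPINA1 at 12580 to 19250 CPM (UMIs of a gene per 1000000 UMIs of the library), whereas ALB, the defining product of mature hepatocytes, was at 34.0 to 89.9 and AHSG had 1 to 3 UMIs in each library. Markers of macrophages summed to 9.25 and 9.45 CPM in the controls and to 10.5 and 14.6 with PA, those of lymphocytes to at most 6.54 and those of neutrophils to at most 2.54 in any library, with C1QA, NKG7, FCGR3B and MPO at 0 in all 4 libraries.

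NF-kB is a family of transcription factors that waits in the cytoplasm, bound by inhibitors such as the product of NFKBIA, until receptors for bacterial products or cytokines activate kinases that destroy the inhibitor. The released dimers switch on chemokines, adhesion molecules, acute-phase proteins and survival factors, and also their own inhibitors, which end the response. In the liver, saturated fatty acids are known to start such a response in hepatocytes and cholangiocytes as well as in macrophages, and chemokines released by the epithelium attract neutrophils and lymphocytes. Fat loading is also known to raise proteins that coat lipid droplets and genes of fatty acid oxidation.

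The counts of a library's cells were added up per gene and tested with edgeR's quasi-likelihood test. It was fitted over all 14 shaker libraries so that 7 groups of 2 shared an estimate of the spread. Besides PA and its control these were other treatments with their own controls, described further on, and untreated shaker organoids. The spread behind these p-values thus came in part from libraries outside the PA experiment. Of 19366 genes tested, 9 passed an adjusted p of 0.05 (Benjamini-Hochberg), 0.0465% of the genes, and all 9 were higher with PA: TNFAIP2, CXCL2, C3, BIRC3, SLC6A14, CXCL3, VNN3, CXCL1 and TNF. No gene passed in the lower direction, where 199 genes (1.03%) had an unadjusted p below 0.05, against 341 (1.76%) that were higher, 2.79% in all. A log2 fold change above 0 was found for 53.1% of all genes. DESeq2 called 51 genes (0.263%), 43 higher and 8 lower, among them all 9. The 25 genes of smallest p were all higher with PA, as were 80 of the 100 of smallest p. The count of 9 moved with the libraries used: it fell to 0 without control replicate 1 (514 genes at an unadjusted p below 0.05) or without control replicate 2 (688), to 3 (TNFAIP2, CXCL2 and C3) without PA replicate 2, and was 20 without PA replicate 1, with 8 of the 9 among them. On simulated counts for this comparison the test recovered 49 of 50 genes changed 4-fold. It recovered 18 of 50 changed 2-fold and 0 of 50 changed 1.5-fold, so smaller changes were mostly not detectable with these libraries. The changed genes were drawn with genes of low level left out, so these numbers do not cover such genes. In the data, larger estimated changes also missed the threshold, such as that of LCN2 (log2 fold change 4.37, edgeR adjusted p = 0.106).

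**Figure D1:**
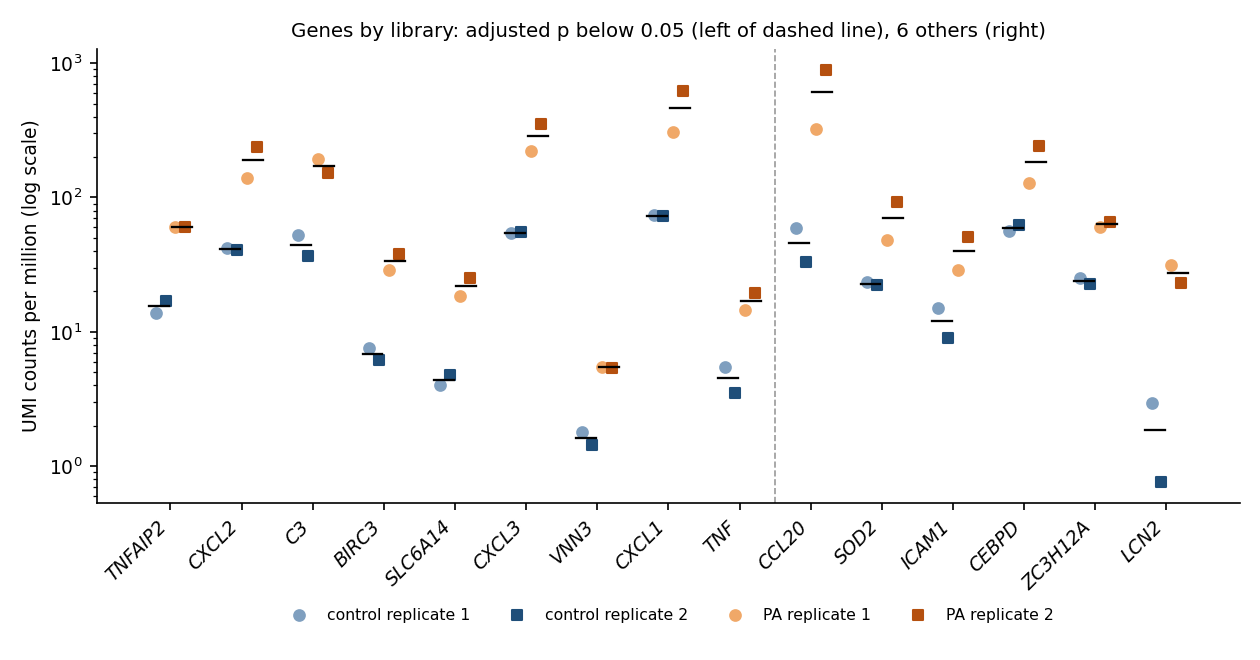
CPM (log axis) of 15 genes in the 2 control and 2 PA libraries; circles are replicate 1, squares replicate 2, and black lines the group means. Left of the dashed line stand the 9 genes that passed an adjusted p of 0.05 in edgeR, right of it 6 that did not; both PA libraries lie above both control libraries for each gene shown.

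Among the ligands, the neutrophil attractants CXCL1, CXCL2 and CXCL3 rose, and the lymphocyte attractant CCL20 was the chemokine with the largest fold change without passing the test. CXCL1 (chr4:73869393-73871308, GRCh38) was at 74.0 and 72.6 CPM in the controls and at 307 and 623 with PA. Its log2 fold change was 2.67 (edgeR, SE 0.40, adjusted p = 0.0353). CXCL2 (chr4:74097040-74099196) was at 42.0 and 40.4 in the controls and at 139 and 239 with PA, a log2 fold change of 2.20 (edgeR, SE 0.26, adjusted p = 0.0103). For both genes the control libraries nearly coincided, while PA replicate 2 stood well above PA replicate 1. CXCL3 (chr4:74036589-74038807) was at 54.4 and 55.3 in the controls and at 222 and 352 with PA, with a log2 fold change of 2.39 (edgeR, SE 0.35, adjusted p = 0.0353). These 3 genes are close copies that lie in 1 cluster. How reads that match more than 1 of them were counted was not examined, so the split between them is uncertain. CCL20 was at 59.1 and 33.2 CPM in the controls and at 321 and 892 with PA. Its log2 fold change of 3.73 had an SE of 0.62 and an edgeR adjusted p of 0.067. DESeq2 called it (adjusted p = 4.09e-05).

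The promoters of the called genes were read to show how alike the 3 CXCL genes are just before their start sites. RefSeq promoters (GRCh38.p14) were found for 7 of the 9 genes, CXCL1, CXCL2, CXCL3, BIRC3, TNFAIP2, SLC6A14 and TNF. The NF-kB consensus, the site that its dimers bind, was searched on both strands in the 250 bases before the start site. It stood in 5.21% of 35116 RefSeq promoters and in 4 of the 7, CXCL1, CXCL2, CXCL3 and BIRC3. As the 3 CXCL promoters are close copies, these 4 are not separate cases to set against that share. The lines give 120 bases, 5′ to 3′ on the strand of the gene, with matches in capitals.
CXCL1 (chr4:73869273-73869392, plus strand, ending at the base before the start site): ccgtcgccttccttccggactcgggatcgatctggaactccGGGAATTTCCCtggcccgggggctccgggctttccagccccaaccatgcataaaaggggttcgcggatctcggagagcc
CXCL2 (chr4:74099196-74099315, minus strand, likewise): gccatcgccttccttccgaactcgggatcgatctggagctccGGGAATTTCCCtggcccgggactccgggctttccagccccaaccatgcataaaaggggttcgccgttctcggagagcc
CXCL3 (chr4:74038690-74038809, minus strand, likewise): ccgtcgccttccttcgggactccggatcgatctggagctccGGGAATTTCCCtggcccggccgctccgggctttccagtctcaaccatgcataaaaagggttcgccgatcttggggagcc
BIRC3 (chr11:102317275-102317394, plus strand, further upstream): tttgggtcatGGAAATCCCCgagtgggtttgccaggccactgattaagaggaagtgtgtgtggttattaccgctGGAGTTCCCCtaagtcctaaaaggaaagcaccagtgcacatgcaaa

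In the 3 CXCL promoters the match began 79, 78 and 79 bases before the start site, in the order printed, and there the consensus was matched on both strands. Aligned over these 120 bases, CXCL1 and CXCL2 shared 113 bases (94.2%), CXCL1 and CXCL3 109 (90.8%) and CXCL2 and CXCL3 107 (89.2%). In BIRC3 the matches lay on the minus strand and began 199 and 135 bases before the start site. The RefSeq start of CXCL3 lies inside the span that GENCODE gives the gene, so its window falls almost wholly within that span. A match is a description of the letters and not evidence of binding.

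Of the 16 chemokines listed, all were tested, and 3 were called (0.0465% of all genes). A log2 fold change above 0 was found for 14 (53.1% of all genes), and the median was 1.66, against 0.02 over all genes. In 11 of the 16 both PA libraries lay above both controls, which was so for 12.4% of all genes. CXCL5, another neutrophil attractant, was at 8.02 and 6.26 CPM in the controls and 19.4 and 38.7 with PA. CXCL8, the main human neutrophil chemokine, was at 25.2 and 18.5 against 35.8 and 128, so its difference came largely from PA replicate 2. Neither passed in edgeR, while DESeq2 called 8 of the 16 (0.263% of all genes). CXCL14 went the other way, at 206 and 186 in the controls and 129 and 160 with PA (log2 fold change -0.44). The median of the list was 0.96 without PA replicate 2. Leaving out 1 library moved the medians of most of the 28 lists by over 1.5 times.

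Of the 18 inflammatory cytokines, TNF alone was called (0.0465% of all genes were called). TNF (chr6:31575565-31578336), the cytokine whose receptors feed NF-kB, was at 5.50 and 3.49 CPM in the controls and at 14.6 and 19.3 with PA, a log2 fold change of 1.99 (edgeR, SE 0.31, adjusted p = 0.0408). The groups did not overlap. LTB, which signals through the lymphotoxin receptor, was at 48.7 and 46.8 against 135 and 113 (log2 fold change 1.38, SE 0.48), and IL32 was at 342 and 302 against 588 and 462. IL1A was at 9.65 and 9.44 in the controls and at 13.3 and 35.0 with PA. The groups did not overlap for any of these 3. The list's median log2 fold change was 0.68, with 14 members above 0 and 9 above control without overlap (12.4% of all genes), and the median fell to 0.15 without PA replicate 2.

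Receptors and adaptors act upstream of NF-kB. None of the 24 was called by edgeR or DESeq2. At an unadjusted p below 0.05, 3 were higher (1.76% of all genes) and none lower. Of the 24, 21 had a log2 fold change above 0 (53.1% of all genes) and 7 were above control without overlap (12.4% of all genes). The median log2 fold change was 0.30, and 0.03 without PA replicate 2. The 3 were IRAK2, an adaptor kinase of Toll-like and interleukin 1 receptors, at 0.743 and 1.13 against 1.65 and 3.03 CPM, MAP3K8 at 23.5 and 19.0 against 30.04 and 36.7, and TICAM1, whose groups overlapped. Among 9 NF-kB subunits and kinases edgeR called 0 and DESeq2 2 (0.263% of all genes). Of the 9, 5 were above 0 (53.1% of all genes) and 4 lay above control without overlap (12.4% of all genes). At an unadjusted p below 0.05, 3 were higher (1.76% of all genes). NFKB2 was at 17.4 and 16.0 CPM in the controls and 28.3 and 27.3 with PA (log2 fold change 0.74, SE 0.16), and RELB at 25.0 and 23.6 against 39.9 and 39.0 (0.70, SE 0.17). Replicates of each group lay close together for both genes, which DESeq2 called (adjusted p = 0.0171 and 0.0428) and edgeR did not (0.283 and 0.415). RELA, the constitutive subunit, was at 39.1 and 28.8 in the controls and at 31.4 and 32.2 with PA.

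The targets and feedback inhibitors of NF-kB held 2 of the called genes (0.0465% of all genes). DESeq2 called 8 of the 28 tested (0.263% of all genes). TNFAIP2 (chr14:103121476-103137439), a gene first found as induced by TNF, was at 13.8 and 17.1 CPM in the controls and at 60.6 and 60.5 with PA, with a log2 fold change of 1.96 (edgeR, SE 0.22, adjusted p = 0.0103). BIRC3 (chr11:102317484-102339403), a ubiquitin ligase that protects cells from TNF-induced death, was at 7.57 and 6.18 against 29.0 and 38.2, a log2 fold change of 2.32 (edgeR, SE 0.29, adjusted p = 0.0103). The PA libraries stood far above the controls for both. SOD2, the mitochondrial superoxide dismutase, was at 23.6 and 22.1 against 47.99 and 93.1 (log2 fold change 1.63), and ICAM1, the leukocyte adhesion receptor, at 15.1 and 8.97 against 29.0 and 50.5 (1.77). Feedback inhibitors pointed the same way: NFKBIA was at 99.7 and 132 against 268 and 327 (1.36), TNFAIP3 at 13.8 and 21.4 against 52.3 and 32.4 (1.24), and ZC3H12A, an RNase that degrades cytokine transcripts, at 25.1 and 22.7 against 60.3 and 65.7 (1.40). None of these 5 passed in edgeR (adjusted p of 0.067 to 0.428), and DESeq2 called each of them. Over all 28 members tested, 27 had a log2 fold change above 0, 21 did not overlap in the PA-higher direction (12.4% of all genes) and the median was 0.65.

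**Figure D2:**
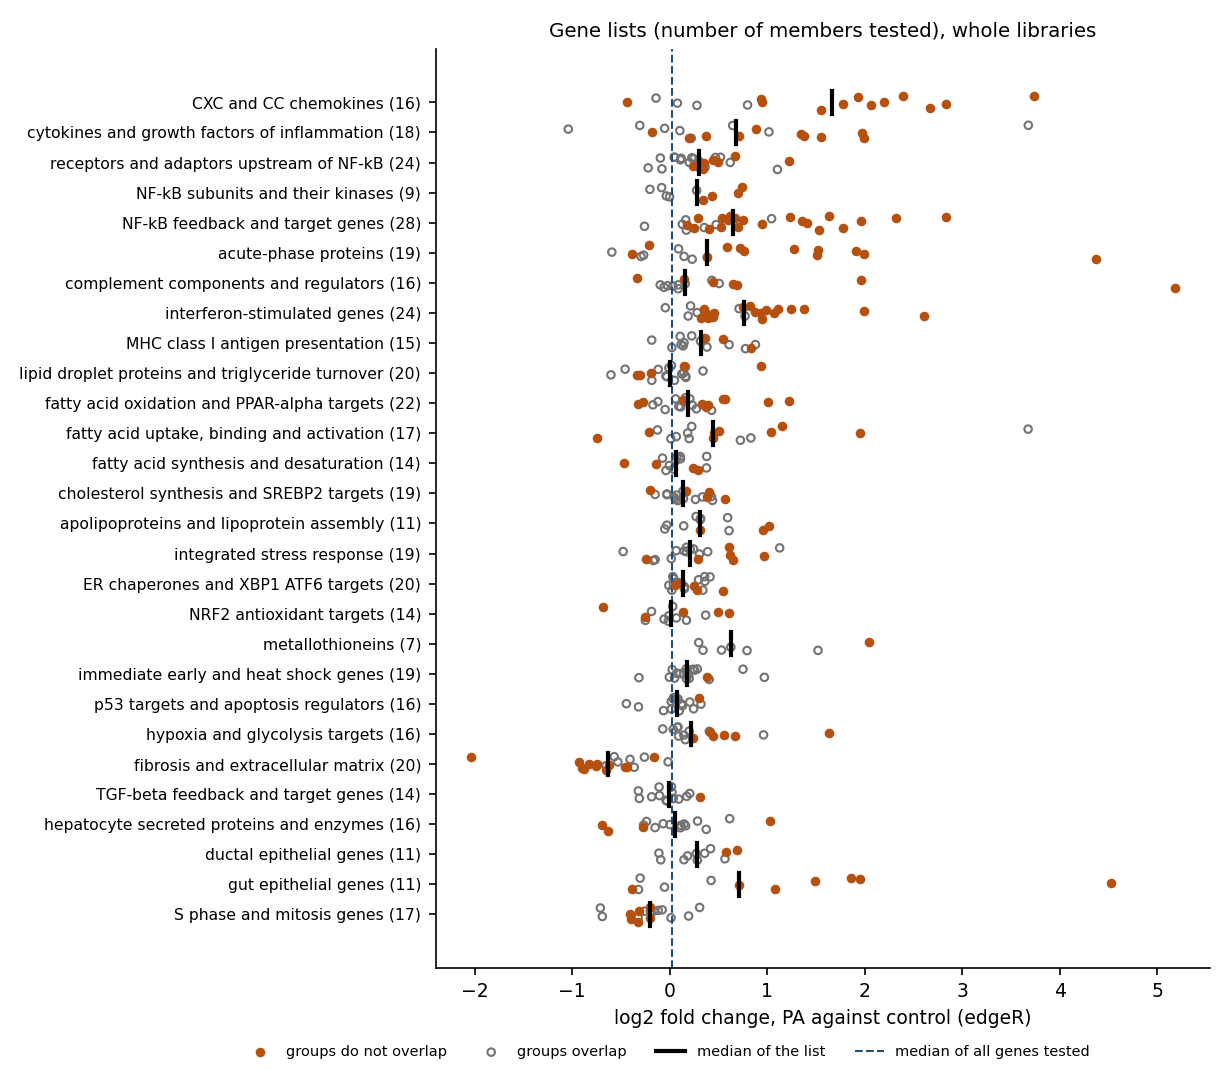
Log2 fold change (PA against control, edgeR) of every tested member of 28 gene lists, 1 point a gene; filled points are genes whose PA and control libraries do not overlap, open points those that do. Black bars are list medians, highest for the chemokines (1.66) and lowest for fibrosis and extracellular matrix (-0.64), and the dashed line is the median of all genes.

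Among secreted defence proteins, complement C3 rose. C3 (chr19:6677704-6730562), the central complement component, was at 52.4 and 36.7 CPM in the controls and at 192 and 152 with PA, a log2 fold change of 1.96 (edgeR, SE 0.24, adjusted p = 0.0103). It was the only called member of 16 tested complement genes (0.0465% of all genes were called), whose median was 0.15. Among 19 tested acute-phase proteins none was called in edgeR, 5 were higher at an unadjusted p below 0.05 (1.76% of all genes) and DESeq2 called 3 (0.263% of all genes). The median was 0.38, and 0.76 without control replicate 2. LCN2, which binds bacterial siderophores, was at 2.97 and 0.759 in the controls and at 31.6 and 23.2 with PA (log2 fold change 4.37, SE 0.82, edgeR adjusted p = 0.106). The protease inhibitors PI3, at 16.3 and 10.1 against 54.0 and 48.2, and SLPI, at 21.2 and 11.6 against 58.8 and 60.6, did not overlap either. In contrast the fibrinogen chain FGA was at 16.6 and 15.7 in the controls and at 12.4 and 12.3 with PA. DUOX2, an epithelial oxidase, was at 7.87 and 7.797 against 29.8 and 23.8, and its maturation factor DUOXA2 at 1.49 and 2.95 against 13.9 and 20.4 (edgeR adjusted p = 0.0715 and 0.0843).

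The remaining 2 called genes are a transporter and a vanin. SLC6A14 (chrX:116436606-116461458), which carries neutral and cationic amino acids into epithelial cells, was at 4.01 and 4.76 CPM in the controls and at 18.5 and 25.1 with PA, a log2 fold change of 2.29 (edgeR, SE 0.32, adjusted p = 0.0255). VNN3 (chr6:132722784-132736935), a member of the pantetheinase family, was at 1.78 and 1.44 against 5.47 and 5.41, a log2 fold change of 1.82 (edgeR, SE 0.27, adjusted p = 0.0353). Both genes had low counts, with 27 UMIs of SLC6A14 and 12 of VNN3 in control replicate 1. The call of VNN3 was lost in 9 of 14 other settings and that of TNF in 9 of 15, with the direction kept in each.

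Interferon-stimulated genes, which respond to type I or type III interferon, were mostly above control without passing the test. Of 24 tested, 23 had a log2 fold change above 0 (53.1% of all genes), and the median was 0.76. In the PA-higher direction 18 did not overlap (12.4% of all genes). DESeq2 called 1 (0.263% of all genes) and edgeR 0, with 10 higher at an unadjusted p below 0.05 (1.76% of all genes). IFI6, at 210 and 221 CPM in the controls and 500 and 353 with PA, is a mitochondrial protein induced by interferon. ISG15 was at 76.8 and 78.5 against 129 and 132, and MX1 at 3.86 and 7.76 against 13.03 and 16.1. The list's median stayed between 0.42 and 0.89 over 15 other settings. Class I antigen presentation had a median of 0.32 over 15 genes (0.05 without PA replicate 2 and 0.16 without control replicate 1), with 1 at an unadjusted p below 0.05 and 0 called by either tool.

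Genes of lipid handling showed no called gene over whole libraries in any of 6 lists, by edgeR or DESeq2; at an unadjusted p below 0.05, 1 lipid droplet gene, 2 oxidation genes and 3 uptake genes were higher (1.76% of all genes). Of the lipid droplet list, PLIN2, the main droplet coat protein outside fat tissue, was at 150 and 160 CPM in the controls and at 355 and 238 with PA (log2 fold change 0.94, SE 0.30, edgeR unadjusted p = 0.00862); it was 1 of 2 members of 20 above control without overlap (12.4% of all genes), and the list's median was 0.005, with a sign that changed in 7 of 15 other settings. Fatty acid oxidation had a median of 0.18 over 22 tested genes. In that list PDK4, which turns glucose carbon away from the mitochondrion, was at 7.13 and 7.94 against 11.6 and 18.9, and CPT1A, which admits fatty acids to the mitochondrion, was at 14.7 and 15.02 against 23.6 and 20.5 (log2 fold change 0.57, SE 0.20). ANGPTL4, a PPAR target that inhibits lipoprotein lipase, was at 10.99 and 20.1 against 31.4 and 43.2. These 3 did not overlap between groups.

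Uptake and binding of fatty acids had a median log2 fold change of 0.44 over 17 genes, and 0.19 without PA replicate 2, with FABP1, the liver fatty acid binding protein, at 372 and 314 CPM in the controls and 642 and 771 with PA (1.04, SE 0.52). FABP3 was at 15.4 and 11.1 against 19.3 and 38.4. Synthesis and desaturation of fatty acids (median 0.07, 14 genes), cholesterol synthesis (0.14, 19 genes) and apolipoproteins (0.31, 11 genes) had no member at an unadjusted p below 0.05. Without PA replicate 2 these medians were 0.01, -0.02 and 0.18, and that of apolipoproteins was 0.55 without control replicate 1. SCD, the desaturase that acts on saturated acyl chains, was at 43.7 and 66.6 in the controls and 57.2 and 86.7 with PA, so the groups overlapped, as they did for APOB, at 13.2 and 12.3 against 12.6 and 17.9. Within single clusters of cells, described further on, FABP1 rose in cluster 0, from 74.9 and 79.4 to 224 and 214 (log2 fold change 1.503, edgeR adjusted p = 0.0156). APOA4, an apolipoprotein of chylomicrons, rose in clusters 0 and 2 (edgeR adjusted p = 0.0168 and 0.0162). It was at no more than 0.789 CPM in any control and entered the test through its PA counts. Each of these 3 calls was lost in 2 of the 4 fits that left a library out.

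Stress lists held no called gene over whole libraries. The integrated stress response had a median of 0.21 over 19 genes, 15 of them above 0 (53.1% of all genes) and 5 above control without overlap (12.4% of all genes): CHAC1 was at 1.34 and 2.13 CPM in the controls and 3.69 and 3.62 with PA, and DDIT3, which encodes CHOP, at 21.4 and 29.3 against 40.9 and 39.3 (log2 fold change 0.65, SE 0.33). ER chaperones had a median of 0.13 over 20 genes, 19 of them above 0 and 5 without overlap, with HSPA5 at 857 and 776 against 1004 and 937. NRF2 targets (0.01, 14 genes) and p53 targets (0.08, 16 genes) had no member at an unadjusted p below 0.05. Neither edgeR nor DESeq2 called a member of any of these 4 lists, and 3 integrated stress response genes and 1 ER gene were higher at an unadjusted p below 0.05 (1.76% of all genes). Hypoxia and glycolysis targets had a median of 0.22, with 15 of 16 above 0 and 6 without overlap, and immediate early and heat shock genes a median of 0.17, with 17 of 19 above 0 and 1 without overlap; both lists had no gene called by either tool, and 1 and 2 genes higher at an unadjusted p below 0.05. Without PA replicate 2 the medians were 0.00 for the integrated stress response, -0.01 for the ER chaperones, -0.12 for p53 targets, 0.38 for hypoxia and -0.05 for the immediate early list. Without control replicate 1 that of NRF2 targets was 0.14.

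Genes of matrix and smooth muscle were below control. All 20 genes of the fibrosis and matrix list had a log2 fold change below 0, with a median of -0.64. Of these, 12 lay below control without overlap (10.6% of all genes). At an unadjusted p below 0.05, 6 were lower (1.03% of all genes). DESeq2 called 1, ACTA2 (0.263% of all genes), and edgeR 0. ACTA2, the smooth muscle actin of myofibroblasts, was at 29.0 and 59.4 CPM in the controls and at 9.29 and 12.4 with PA (log2 fold change -2.04, SE 0.54, edgeR adjusted p = 0.56, DESeq2 adjusted p = 0.0181). COL1A1 was at 144 and 190 against 61.7 and 117 (-0.90, SE 0.33), and COL6A3 at 46.2 and 68.4 against 27.5 and 37.5. The list's median was -0.21 without PA replicate 1, -0.28 without control replicate 2 and -1.06 without PA replicate 2. In summed libraries fewer cells of a type and less RNA per cell cannot be told apart. Mesenchymal markers summed to 1218 and 2296 CPM in the controls and to 973 and 1556 with PA, with 6 of 12 lower without overlap, and their part in these differences was not tested at the level of the whole library.

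DESeq2's 8 lower genes were HIST1H4C, MYOF, ITGA8, ACTG2, ACTA2, HGF, FENDRR and FOXF1. ACTG2, the enteric smooth muscle actin, was at 5.20 and 12.5 CPM in the controls and at 2.25 and 1.77 with PA (edgeR log2 fold change -2.23, DESeq2 adjusted p = 0.0135). FOXF1, a transcription factor of gut and lung mesenchyme, was at 0.594 and 1.52 against 0.212 and 0.330 (DESeq2 adjusted p = 0.0335). The histone gene HIST1H4C was at 273 and 397 against 182 and 170 (edgeR log2 fold change -0.93, DESeq2 adjusted p = 0.00970). MYOF, a membrane repair protein, was at 35.6 and 36.6 against 22.3 and 19.9 (-0.78, SE 0.17, edgeR adjusted p = 0.305), with replicates close together in each group. TGF-beta targets had a median of -0.01 over 14 genes, -0.44 without PA replicate 2 and 0.20 without PA replicate 1, with 7 above 0 and none at an unadjusted p below 0.05.

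Among the 4 cell identity lists, gut epithelial genes had the highest median and genes of S phase and mitosis the lowest. Hepatocyte proteins had a median log2 fold change of 0.05 over 16 tested genes, a sign that changed in 7 of 15 other settings, with AFP at 675 and 731 CPM in the controls and 541 and 800 with PA; ALB was at 34.0 and 40.0 against 61.0 and 89.9 (1.02, SE 0.48). Ductal genes had a median of 0.28 over 11, and 0.05 without PA replicate 2. Gut epithelial genes had a median of 0.71 over 11, with 6 above control without overlap (12.4% of all genes), 4 higher at an unadjusted p below 0.05 (1.76% of all genes) and none called by edgeR or DESeq2, and the median was -0.21 over the members above 10 CPM and 0.33 without PA replicate 2. MUC2, the intestinal mucin, was at 1.78 and 4.90 against 12.9 and 8.14. Genes of S phase and mitosis had a median of -0.21 over 17 (-0.51 without PA replicate 2), with 3 above 0 and 6 below control without overlap (10.6% of all genes).

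To see which cells carried the response, the 24859 cells were clustered without the listed and called genes, which gave 11 clusters. Cluster 6 was mesenchymal-like by its markers, cluster 7 cycling-like and cluster 8 squamous-like. The others are called by their leading genes: cluster 0 RELN, SPP1 and MMP12, cluster 1 NKX6-2, EDN3 and CA4, cluster 2 GP2, LIPC and SPIB, cluster 3 PRSS1, PRSS2 and PLA2G2A, cluster 4 PHGR1, APOA4 and APOC3, and cluster 9 CHGA, SCG2 and NEUROD1. Cluster 4 had 8 hepatocyte and 4 gut markers among its leading genes and was left unnamed. Clusters 5 (ANKRD1 and CTGF) and 10 (AMTN and VCAM1) held 37 and 35 cells in control replicate 1, under the minimum of 50, and were not tested. The mesenchymal-like cluster took 6.33% and 10.6% of control cells and 4.53% and 4.67% of PA cells, a difference of -3.85 percentage points without overlap (exact permutation test, two-sided, p = 0.333, the smallest that 2 against 2 allows). Cluster 1 followed the replicate number, with 41.4% and 8.03% of control cells and 30.04% and 9.73% of PA cells. Clusters 2, 3, 5, 7, 8 and 10 split by replicate number too, with both libraries numbered 2 higher. In cluster 3 the shares were 6.96% and 10.97% of control cells and 7.16% and 15.25% of PA cells. The fits within clusters did not include the replicate number.

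Within clusters, edgeR was fitted to the 4 libraries alone. CCL20 was called over whole libraries by DESeq2 and not by edgeR. It rose in 8 of the 9 clusters tested, among them the mesenchymal-like and squamous-like clusters. In cluster 4 it was at 73.4 and 92.5 CPM in the controls and at 717 and 1886 with PA (log2 fold change 3.95, SE 0.43, edgeR adjusted p = 7.8e-05). In the mesenchymal-like cluster it was at no more than 2.13 CPM in either control and at 52.04 and 199.97 with PA (edgeR adjusted p = 0.00464). It entered the test of that cluster through its PA counts. AFP, a hepatocyte product, was also found in that cluster, at 14.6 and 58.9 CPM in the controls and 87.9 and 37.5 with PA, and the part of free RNA in the CCL20 counts was not tested. In the cycling-like cluster, where it was not called, it was at 86.8 and 10.8 against 211 and 678. CXCL1, CXCL2 and CXCL3 each rose in 5 clusters (0, 1, 2, 4 and 9), C3 in 5 (0, 2, 3, 7 and 8), and BIRC3, ICAM1 and LCN2 in 4. C3 was at 97.7 and 62.5 in the controls and 278 and 327 with PA in cluster 3 (log2 fold change 1.97), and at 2.92 and 3.46 against 20.8 and 25.4 in the mesenchymal-like cluster (2.77, edgeR adjusted p = 0.147). Whether an effect differed between clusters was not tested.

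**Figure D3:**
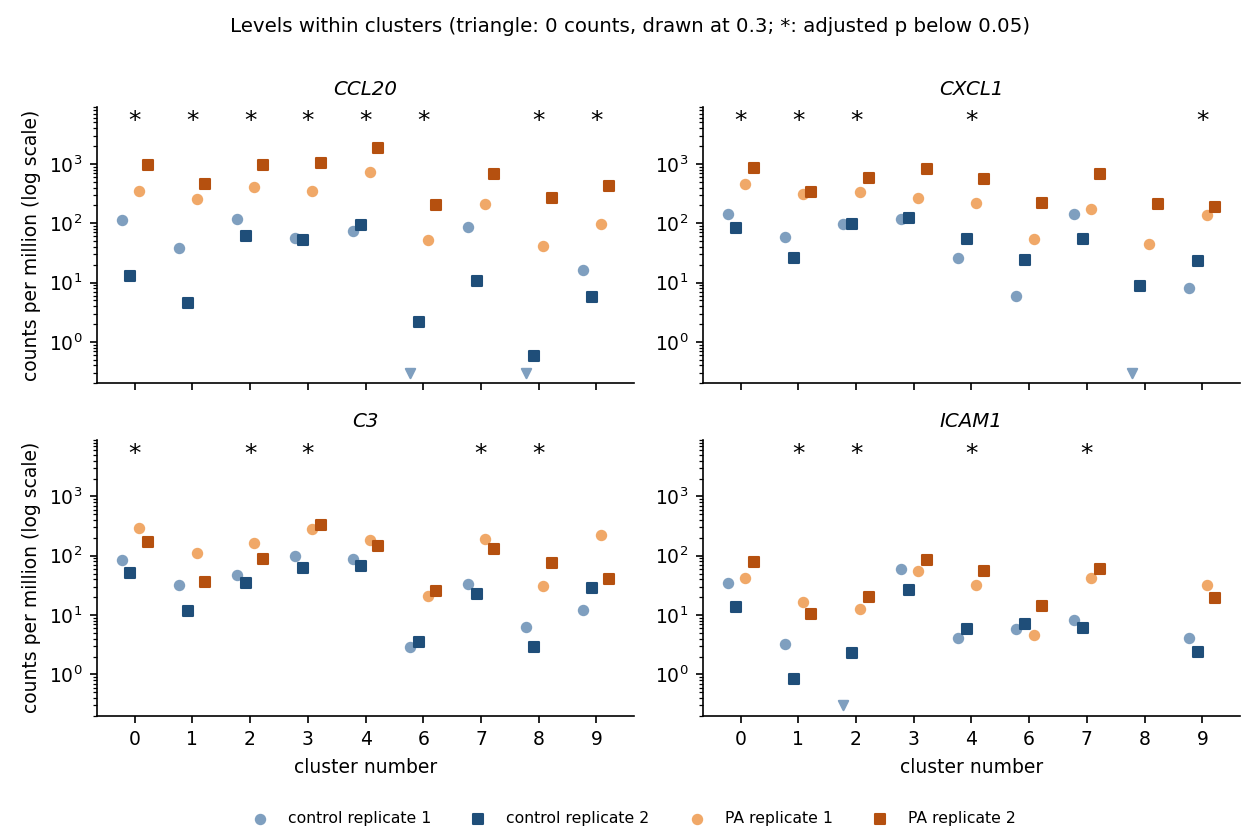
CPM (log axis) of CCL20, CXCL1, C3 and ICAM1 in each tested cluster, by library; stars mark an edgeR adjusted p below 0.05 within the cluster, and triangles a count of 0. CCL20 carries a star in 8 of 9 clusters, and its PA libraries lie above its control libraries in every cluster shown.

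The share of tested genes that rose was 0.18% in cluster 0 (23 genes), 0.124% in cluster 1 (14), 0.224% in cluster 2 (27), 0.0479% in cluster 3 (6), 0.263% in cluster 4 (30), 0.00997% in the mesenchymal-like (1), 0.0192% in the cycling-like (2) and 0.0457% in the squamous-like cluster (4), and 0.0837% in cluster 9 (8). With 5 genes that fell these made 120 calls of 68 genes, 22 of them in more than 1 cluster; genes named from them were chosen after their values were seen. Of the 120 calls, 103 stood with the cells of highest doublet score left out. With those cells left out no gene was called in the mesenchymal-like or the squamous-like cluster; the log2 fold change of CCL20 was then 4.07 (from 6.04) and 7.44 (from 8.03), with edgeR adjusted p of 0.176 and 0.117. The number of calls in a cluster moved widely when 1 library was left out, from 6 to 301 in cluster 4 and from 0 to 391 in the squamous-like cluster. Of the 120 calls, 106 stood without PA replicate 1, 84 without PA replicate 2, 88 without control replicate 1 and 29 without control replicate 2, the deeper control. Such a fit leaves 1 library in an arm, which is assumed to vary like the 2 libraries of the other arm, so these counts show which calls moved and are weak evidence of stability. With 1 library left out, CCL20's log2 fold change ran from 2.55 to 5.68 in cluster 0. The range was 2.34 to 3.59 in cluster 2 and 3.07 to 4.49 in cluster 4. It was 4.70 to 10.2 in cluster 6 and 3.60 to 5.76 in cluster 9. Control UMIs of CCL20 numbered 0 and 8 in cluster 6, 0 and 1 in cluster 8 and 4 and 7 in cluster 9. There CCL20 entered the test through its PA counts, which favoured its rise in each fit.

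In cluster 4, 4 of 12 chemokines and 4 of 22 NF-kB targets were called. In each of the hepatocyte and gut lists 1 of 11 genes was called (0.263% of all genes rose in that cluster). Also called were 3 of 12 acute-phase proteins (LCN2, SAA1 and SAA2) and 1 of 20 interferon-stimulated genes (IFI27). With no more than 8 UMIs in either control of cluster 4, they entered the test through their PA counts. Their number is therefore not set against other genes. ALB rose there, from 105 and 89.8 CPM to 292 and 706 (log2 fold change 2.37, SE 0.38, edgeR adjusted p = 0.00442), as did GUCA2A and GUCA2B, the guanylin peptides of the gut, and KRT20. In no other tested cluster was ALB called; its log2 fold change was below 0 in clusters 0, 1, 2 and 7, at -1.06 in cluster 2 and -1.79 in cluster 7 (edgeR adjusted p = 0.797), and above 0 in clusters 3 and 9. In cluster 8 a control and a PA library had no UMI of ALB, and the groups overlapped. DEFA6, a Paneth cell defensin, had no UMI in either control library and was at 55.7 and 69.9 CPM with PA, at least 128-fold higher when the controls are set to a floor of 3 counts over both. SAA2, an acute-phase apolipoprotein, was at no more than 0.932 CPM in the controls and at 28.1 and 37.5 with PA, and DUOXA2 was at 5.44 and 2.05 against 70.3 and 87.7. With 1 library left out, the log2 fold change ran from 1.60 to 2.88 for ALB and from 3.85 to 5.25 for DUOXA2. The range was 10.2 to 11.1 for DEFA6 and 5.03 to 9.48 for SAA2. DEFA6 and SAA2 entered the test through their PA counts, so their rise in each fit was favoured by that entry.

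In cluster 2, 5 of the 7 metallothioneins tested, small proteins that bind zinc and copper, rose: MT1E, MT1G, MT1M, MT1X and MT2A. Of these, MT1M had no UMI in either control and MT1E, MT1G and MT1X had 5 or 6 in both together, so that they entered the test through their PA counts, and their number is not set against other genes. MT2A was at no more than 5.35 CPM in the controls and at 23.6 and 45.8 with PA, and MT1G at no more than 0.917 against 22.0 and 15.4. Over whole libraries the list's median log2 fold change was 0.63 (0.13 without PA replicate 2), and 0 of 7 were called by either tool and 2 had an unadjusted p below 0.05. In clusters 0 and 1 the list's median was 2.00 and 1.04, with 6 of 6 genes above 0 in each and 0 called. In cluster 3 it was -1.60 over 5 genes, none of them above 0, and in cluster 4 it was -0.12 over 4. Control replicate 1 had 191 cells in cluster 2 and no UMI of any of the 5, and each of the 5 calls was lost in 1 or 2 of the fits that left a library out. In cluster 9, INS, the insulin gene, rose from 36.4 and 26.7 to 402 and 90.3 CPM (log2 fold change 3.05, SE 0.52, edgeR adjusted p = 0.0112). Its log2 fold change ran from 1.64 to 3.77 with 1 library left out. HAMP, the iron hormone hepcidin, rose there from 24.2 and 31.5 to 118 and 120 (2.00, SE 0.33, edgeR adjusted p = 0.00631). The 5 genes that fell were CXCL14 and PCDH9 in cluster 0, CYP1A1 in cluster 2, MUCL1 in cluster 3 and C6orf15 in cluster 4. CYP1A1, which metabolises aromatic compounds, was at 110 and 61.7 against 15.8 and 32.0.

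Within the mesenchymal-like cluster, the smooth muscle genes that DESeq2 had called over whole libraries were below control. Most ACTA2 UMIs lay in this cluster (513 of 713 in PA replicate 2), so this is no separate result. TAGLN, of the matrix list, overlapped there, at 1368 and 1998 CPM in the controls and 1405 and 1327 with PA. ACTA2 was at 497 and 707 CPM of that cluster in the controls and at 180 and 229 with PA (log2 fold change -1.56, SE 0.32, edgeR adjusted p = 0.154), and ACTG2 at 90.6 and 151 against 45.1 and 25.0 (-1.89, SE 0.39, edgeR adjusted p = 0.154). HGF, a growth factor for hepatocytes, was at 35.1 and 15.7 against 9.25 and 2.23. None passed the test in this cluster. COL6A3 was at 854 and 825 against 682 and 810 (log2 fold change -0.17), and COL1A1 at 1997 and 1914 against 1018 and 1699. Of 26 genes tested there from the matrix list and DESeq2's lower genes, 24 were below 0 and 0 were called. Their median was -0.33, against 0.007 over all genes of the cluster. These genes had already been seen to be lower over whole libraries.

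Because depth differed, the share of cells with at least 1 UMI was taken after each cell had been thinned to 1000 UMIs, which left out 785 control and 760 PA cells that were shallower. CXCL1 was then found in 5.03% and 5.75% of control cells and in 16.7% and 25.5% of PA cells (unthinned 7.96% and 17.0% against 27.7% and 47.6%). CCL20 was found in 3.31% and 2.18% against 14.5% and 24.7%, and C3 in 4.29% and 3.05% against 11.9% and 9.66%. The shares of TNFAIP2 were 1.06% and 1.64% against 4.90% and 5.27%, and those of TNF 0.387% and 0.376% against 1.25% and 1.59%. PA libraries exceeded control libraries for each of these genes, though 2 against 2 cannot pass an exact permutation test (two-sided p = 0.333 at best). These genes were chosen for their rise in the same counts, which favoured that order. Droplets also hold free RNA, whose part in these shares was not tested. In the mesenchymal-like cluster, at the same thinned depth, TNFAIP2 was found in 1.28% and 0.887% of control and 1.65% and 1.61% of PA cells, and CXCL1 in 0.641% and 1.77% against 2.63% and 8.07%. For CXCL1 the PA cells of cluster 0 reached 23.0% and 33.1%.

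**Figure D4:**
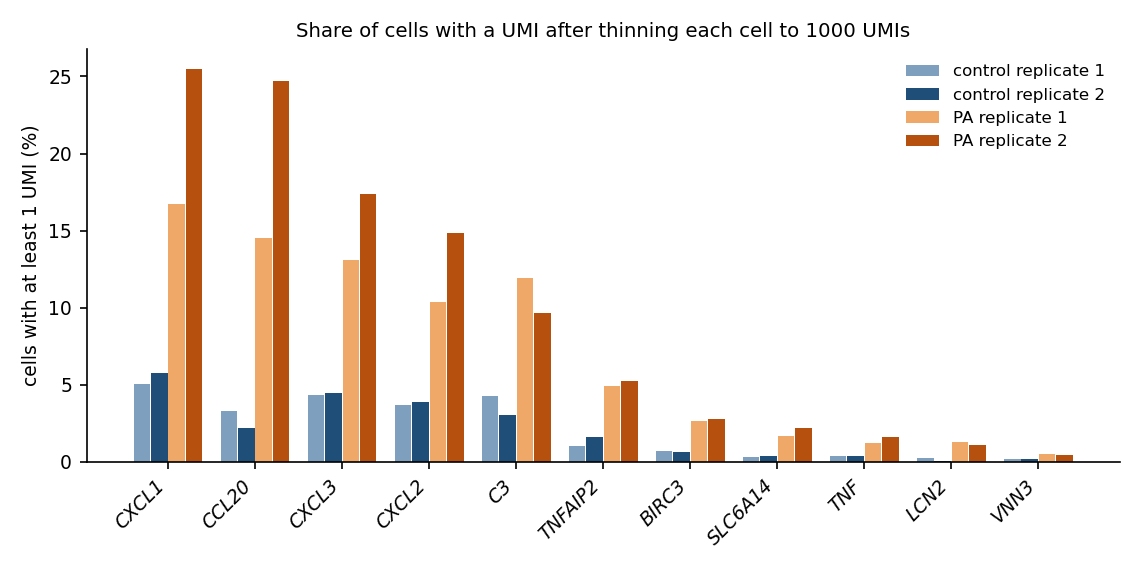
Percent of cells with at least 1 UMI of each gene after every cell was thinned to 1000 UMIs; 1 bar a library, with no error bar since each bar is 1 library. Both PA bars exceed both control bars for every gene, from CXCL1 (16.7% and 25.5% with PA) down to VNN3 (0.532% and 0.449%). The genes were chosen for their rise in the same counts, which favoured this order.

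The same fit held 2 other treatments of shaker organoids with controls of their own, each with 2 treated and 2 control libraries. These were 10 ng/ml of TGFB1, a cytokine that drives matrix production, and 500 µM of OA, an abbreviation the labels do not spell out. TGFB1 was given for 5 days, as was PA, while no length of treatment was found for OA. The difference between the PA effect and the TGFB1 effect passed an adjusted p of 0.05 for 1705 genes (8.8%), and for 7 of the 9 called genes, which were chosen by their PA effect, a term of this difference, so that their share is no independent result. The exceptions were CXCL1 (edgeR adjusted p = 0.0642) and TNF. TNF was higher under both, with log2 fold changes of 1.99 with PA and 1.95 with TGFB1. VNN3 went from 1.82 with PA to -2.05 with TGFB1, and C3 from 1.96 to -0.76. The difference from the OA effect passed for 3971 genes (20.5%) and for TNFAIP2, BIRC3, SLC6A14 and VNN3, each with a larger log2 fold change under OA; BIRC3 was at 2.32 with PA and 4.44 with OA. For CXCL1, CXCL2, CXCL3, C3 and TNF the difference from OA did not pass (edgeR adjusted p of 0.158 to 0.735). The OA matrices name another program version in their headers than the PA and TGFB1 matrices, and its part in the difference from OA was not tested.

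**Figure D5:**
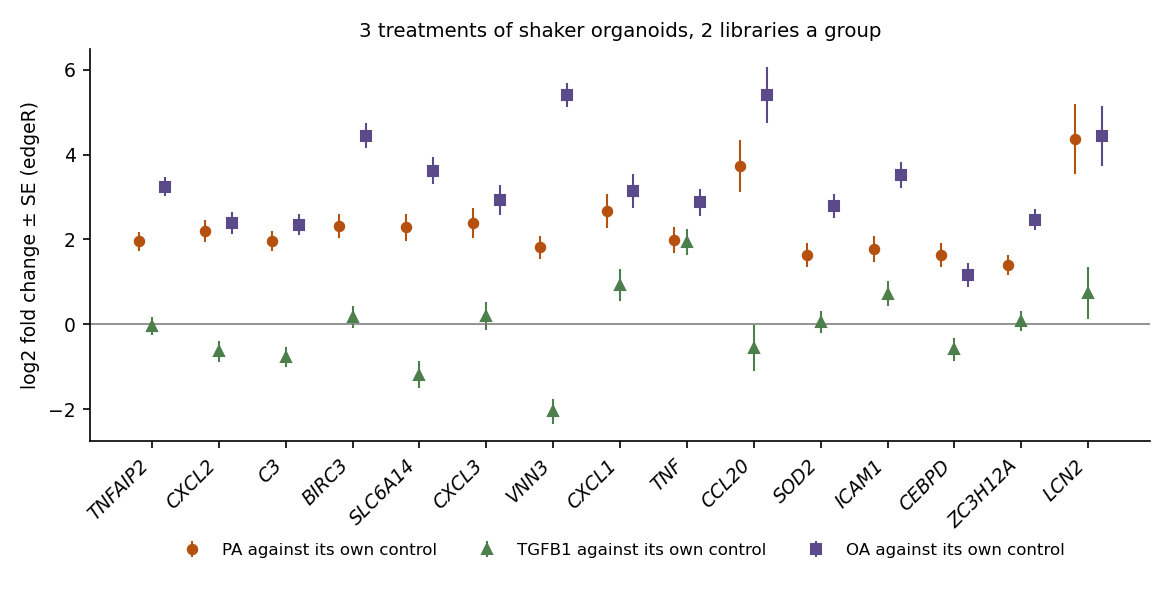
Log2 fold change with its SE (edgeR, 2 treated against 2 control libraries each) of the 9 called genes and 6 others under PA, TGFB1 and OA, each against its own control. VNN3 is at 1.82 with PA, -2.05 with TGFB1 and 5.40 with OA, while TNF is above 0 under all 3.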

How the data were processed

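The values are UMI counts per gene and cell in filtered matrices that the authors deposited, made from 10x libraries. Per the submitters' processing notes, bcl2fastq, Cell Ranger 3.0.2, Scanpy and GRCh38 were used; per the file headers the PA and TGFB1 matrices name version 3.0.2 and the OA matrices cellranger 6.0.2. Alignment settings: not given in the sources used here.

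Libraries were grouped by their titles. Only cells with 500 or more genes and no more than 20% mitochondrial counts entered, and counts were summed per library over 32732 gene identifiers shared by all matrices, and genes passing filterByExpr were tested with edgeR 4.0.16 (TMM, quasi-likelihood, R 4.3.3), 14 libraries in 1 fit, two-sided, with Benjamini-Hochberg adjustment. CPM values are TMM-scaled, except marker sums. DESeq2 1.42.0 and limma 3.58.1 were alternatives, with other cell and count filters, thinning, the replicate block and each library left out. Cells were clustered with scanpy 1.11.5 and leidenalg 0.10.2 (2000 variable genes, 30 components, 15 neighbours, resolution 0.5). Doublets were kept, because the caller set no usable threshold; the top scores were left out as an alternative. The scripts were tested on simulated data. The members and gene lists were chosen with earlier results of these data known. Named genes were those called, those of smallest p in either direction and the list members; genes named within clusters were chosen after their values were seen. Positions of genes are those of GENCODE v44, and promoters those of RefSeq.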

Additional observations from a re-analysis of the deposited data

Results flagged for a closer look

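For 7 of the 9 called genes the PA effect differed from the TGFB1 effect, each against its own control libraries, by edgeR's test of the difference, with Benjamini-Hochberg adjustment over all genes, of which 8.8% passed. The 9 were chosen by their PA effect, which is a term of the difference, so passing was favoured by the choice. The difference in log2 fold change, PA minus TGFB1, was 2.00 for TNFAIP2 (adjusted p = 0.00119), 2.83 for CXCL2 (3.66e-04), 2.72 for C3 (3.22e-04) and 2.15 for BIRC3 (0.00366). It was 3.47 for SLC6A14 (3.75e-04), 2.20 for CXCL3 (0.0115) and 3.87 for VNN3 (1.01e-04). The TGFB1 log2 fold change itself was below 0 for TNFAIP2, CXCL2, C3, SLC6A14 and VNN3, at -0.05 for TNFAIP2 and -2.05 for VNN3.

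For 4 of the 9 the PA effect differed from the OA effect by the same test, which 20.5% of all genes passed, and was the smaller. No length of treatment was found for OA. PA minus OA was -1.29 for TNFAIP2 (edgeR adjusted p = 0.00984), -2.13 for BIRC3 (0.00234), -1.34 for SLC6A14 (0.0409) and -3.59 for VNN3 (8.61e-05).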

How the results depend on the processing

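The count of 9 called genes was 16 in the 4 PA libraries alone (7 of the 9 among them) and 51 with DESeq2. It was 162 without a low-count filter and 0 with limma on the mean of cells (511 genes at an unadjusted p below 0.05). With the replicate block it was 5, with CXCL3, VNN3, CXCL1 and TNF lost; the labels share only numbers, and same-numbered libraries deviated together with r = 0.153 across 14170 genes, which are not independent replicates. Leaving out 1 library gave 0 to 20 calls, 755 to 1407 for PA minus TGFB1 and 2642 to 3388 for PA minus OA. Within clusters, leaving out 1 library gave 12 to 127 calls in cluster 0, 0 to 18 in cluster 1, 7 to 123 in cluster 2, 1 to 167 in cluster 3, 6 to 301 in cluster 4, 9 to 94 in the mesenchymal-like, 4 to 60 in the cycling-like and 0 to 391 in the squamous-like cluster, and 8 to 51 in cluster 9. The stricter cell filter gave 10, 7, 16 and 4 calls in clusters 0 to 3. Without the highest doublet scores there were 19 calls in cluster 3, 0 in the mesenchymal-like, 1 in the cycling-like and 0 in the squamous-like cluster, and 5 in cluster 9. The difference in the share of cells with CXCL1 was 20.29 points at 2000 UMIs per cell and 15.72 at 1000. The cause of these changes was not tested.

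Of 1409 log2 fold changes of named genes under other settings, 21 changed sign. Thinned to the shallowest library, BSCL2 was at 0.26 and BCL2 at 0.68. With 1 library left out, the log2 fold change ran from -0.66 to 0.0006944 for BSCL2, -5.10 to 8.81 for FABP4, -0.10 to 1.05 for APOM, -0.16 to 1.79 for CEBPB and -0.11 to 0.69 for SEC61B. The range was -0.28 to 2.28 for MT1X, -0.11 to 1.28 for HSPA1A, -0.15 to 1.57 for HSPA1B, -0.62 to 0.0343 for BCL2 and -0.95 to 0.07801 for FAS. It ran from -0.01758 to 1.90 for PFKFB4, -0.88 to 0.08514 for TGFBI, -0.71 to 0.005117 for CYR61, -0.17 to 1.12 for RBP4 and -0.10 to 0.71 for CLDN4. The same range was -1.11 to 0.18 for MCM2 and -0.38 to 0.20 for AFP. The cause of these sign changes was not tested.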
